A study of Homo sapiens with 12 samples.

Results

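The genes described here are 9 components and regulators of HLA class I antigen presentation, taken as the rows of the deposited table whose gene symbol was HLA-B, HLA-C, HLA-E, HLA-F, B2M, TAP1, TAP2, NLRC5 or PSMB9. All 9 were found, each in 1 row, among 58735 genes, and all 9 passed the filter on low reads in every comparison. They were followed by bulk RNA sequencing in 12 libraries, 3 in each of 4 groups, from KYSE180 and KYSE150, established human oesophageal squamous cell carcinoma lines. The groups were KYSE180 cells overexpressing CDCA7 (genotype label CDCA7 overexpression), native KYSE180 cells (genotype label WT), KYSE150 knockdown derivatives carrying shCDCA7, a hairpin RNA aimed at CDCA7, and native KYSE150 cells (WT). All groups were grown in RPMI-1640 with serum. The labels name no empty-vector or non-targeting hairpin control, no promoter for the constructs, and no clone or pool for the changed cells, so the handling that comes with a construct cannot be told apart from the change in CDCA7. CDCA7 is a partner of the remodeller HELLS in the nucleus, and the study's title places it in TGF-β signalling. The question here is how the class I genes differed between the changed and the native cells of each line.

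Class I molecules display peptides from inside the cell to CD8 T cells. Proteasomes cut cellular proteins, the TAP1 and TAP2 transporter carries the peptides into the endoplasmic reticulum, and there they are loaded on a heavy chain paired with the light chain β2-microglobulin, the product of B2M. HLA-B and HLA-C are classical heavy chains, and HLA-C is also read by inhibitory receptors of natural killer cells. HLA-E presents leader peptides of other class I chains to the NKG2A receptor, and HLA-F is a less abundant nonclassical chain. PSMB9 is a catalytic subunit that replaces PSMB6 when the immunoproteasome is built, and NLRC5 is the transactivator of class I promoters. Interferon is known to raise these genes together, and loss of class I is a known feature of many squamous carcinomas.

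Library totals ran from 16.3 M to 19.6 M recovered reads. CDCA7 itself was at 44.6, 59.1 and 57.9 FPKM (fragments per kilobase, scaled for library size) in the overexpressing KYSE180 libraries, against 24.0, 18.2 and 17.4 FPKM in native KYSE180, and at 9.24, 10.1 and 8.83 FPKM in shCDCA7 libraries, against 27.4, 25.6 and 25.6 FPKM in native KYSE150, so it differed in the direction of each label. Of 12 squamous and epithelial markers, KRT5 lay between 206 and 1452 FPKM and TP63 between 23.8 and 124 FPKM over the 12 libraries. SOX2 and KRT13, of the same list, were high in KYSE180 only. They averaged 211 and 384 FPKM in native KYSE180, against 0.121 and 0.113 FPKM in native KYSE150 and 0.0844 and 0.0810 FPKM in shCDCA7 KYSE150. Of 15 leukocyte markers, CD2, MS4A1, LYZ, FCGR3A and TYROBP were at 0 in all 12 libraries, PTPRC reached at most 0.0414 FPKM, and the 15 together summed to between 0.495 and 3.15 FPKM. The sums were between 0.791 and 5.51 FPKM for 9 fibroblast markers and between 0.0563 and 2.14 FPKM for 7 endothelial markers. In bulk libraries fewer cells of a type and less RNA per cell cannot be told apart. Native KYSE180 replicate 2 stood apart from its group in the class I genes: its 9 members summed to 355 FPKM, against 1192 and 1152 FPKM in native replicates 1 and 3. The mitochondrial share of reads was 7.97%, 8.56% and 8.65% in overexpressing KYSE180, against 4.76%, 5.20% and 6.38% in native KYSE180, and 5.20%, 11.2% and 5.73% in shCDCA7 KYSE150, against 4.03%, 4.15% and 4.10% in native KYSE150. It was higher in every overexpressing or shCDCA7 library than in any native library of the same line, and its part in the group differences was not tested. It was highest in shCDCA7 replicate 2, whose expression correlated at 0.951 and 0.954 with its group's other libraries, against 0.996 between the other two.

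Promoters of class I genes carry elements read by interferon-activated factors, by NF-κB and by the NLRC5 assembly. The RefSeq table for GRCh38.p14 held a window from 250 bases before to 50 bases after the start for 7 of the 9 members, HLA-E and NLRC5 having none. Windows of B2M and TAP1, which were called in KYSE150, and of HLA-B and HLA-C, which were not, are printed 5′ to 3′ on the gene's own strand, with every match to the motifs in capitals. They lie at chr15:44711267-44711566 (plus strand, B2M), chr6:32853655-32853954 (minus strand, TAP1), chr6:31357130-31357429 (minus strand, HLA-B) and chr6:31272043-31272342 (minus strand, HLA-C).
B2M: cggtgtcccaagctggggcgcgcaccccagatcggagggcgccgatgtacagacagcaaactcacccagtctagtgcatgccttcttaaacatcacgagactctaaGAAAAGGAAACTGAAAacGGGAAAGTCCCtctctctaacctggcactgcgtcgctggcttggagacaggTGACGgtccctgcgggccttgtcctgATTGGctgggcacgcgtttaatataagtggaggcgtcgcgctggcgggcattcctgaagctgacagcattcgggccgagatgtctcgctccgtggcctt
TAP1: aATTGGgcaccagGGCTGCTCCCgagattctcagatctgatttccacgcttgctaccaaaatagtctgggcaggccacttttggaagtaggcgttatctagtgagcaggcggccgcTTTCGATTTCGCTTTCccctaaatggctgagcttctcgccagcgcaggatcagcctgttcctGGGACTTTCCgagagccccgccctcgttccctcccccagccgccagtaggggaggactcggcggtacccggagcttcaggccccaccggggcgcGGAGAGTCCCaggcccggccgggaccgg
HLA-B: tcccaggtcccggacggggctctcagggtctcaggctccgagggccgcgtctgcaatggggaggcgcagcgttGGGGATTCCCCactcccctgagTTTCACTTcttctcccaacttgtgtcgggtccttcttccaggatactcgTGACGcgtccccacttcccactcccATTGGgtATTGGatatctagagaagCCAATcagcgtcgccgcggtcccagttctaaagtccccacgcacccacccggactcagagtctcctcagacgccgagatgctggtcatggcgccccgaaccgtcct
HLA-C: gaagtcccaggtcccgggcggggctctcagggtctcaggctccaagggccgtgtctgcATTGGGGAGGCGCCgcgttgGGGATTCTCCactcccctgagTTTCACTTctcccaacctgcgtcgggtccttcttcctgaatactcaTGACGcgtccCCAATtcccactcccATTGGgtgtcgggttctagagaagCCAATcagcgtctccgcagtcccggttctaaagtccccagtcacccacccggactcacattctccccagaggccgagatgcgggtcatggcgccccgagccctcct

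The motifs were searched as letters on both strands, and matches may overlap: GAAA, any 2 bases and GAAA (the interferon-stimulated response element), its shorter relative AANNGAAA, GGGA, any 4 bases and CC (the NF-κB site), CCAAT (Y box) and TGACG (part of the X2 box). The interferon-stimulated response element was in 4 of the 7 member windows, those of B2M, TAP1, TAP2 and HLA-F, and in 3.57% of all 35116 windows of the same length. B2M held 2 overlapping copies, starting 144 and 138 bases before its start, and TAP1 held 2 overlapping copies at 134 and 128 bases before its start. HLA-B and HLA-C held the shorter AANNGAAA as TTTCACTT on the other strand, which was in 6 of 7 member windows and in 22.8% of all windows. A link between these matches and the KYSE150 calls was not tested. PSMB9, called there, held neither form within 250 bases before its start, and bases further out were not searched. HLA-E, also called, had no window. TAP2 and HLA-F held the full element and were not called. The HLA-B result in KYSE150 rests on 13 to 32 reads per library. CCAAT was in 6 of 7 member windows and 34.6% of all windows, TGACG in 5 of 7 and 24.6%, and the NF-κB site in 4 of 7 and 25.6%. TAP1 and PSMB9 are neighbours that start 488 bases apart on opposite strands. These are matches of letters and not measured binding.

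**Figure D1:**
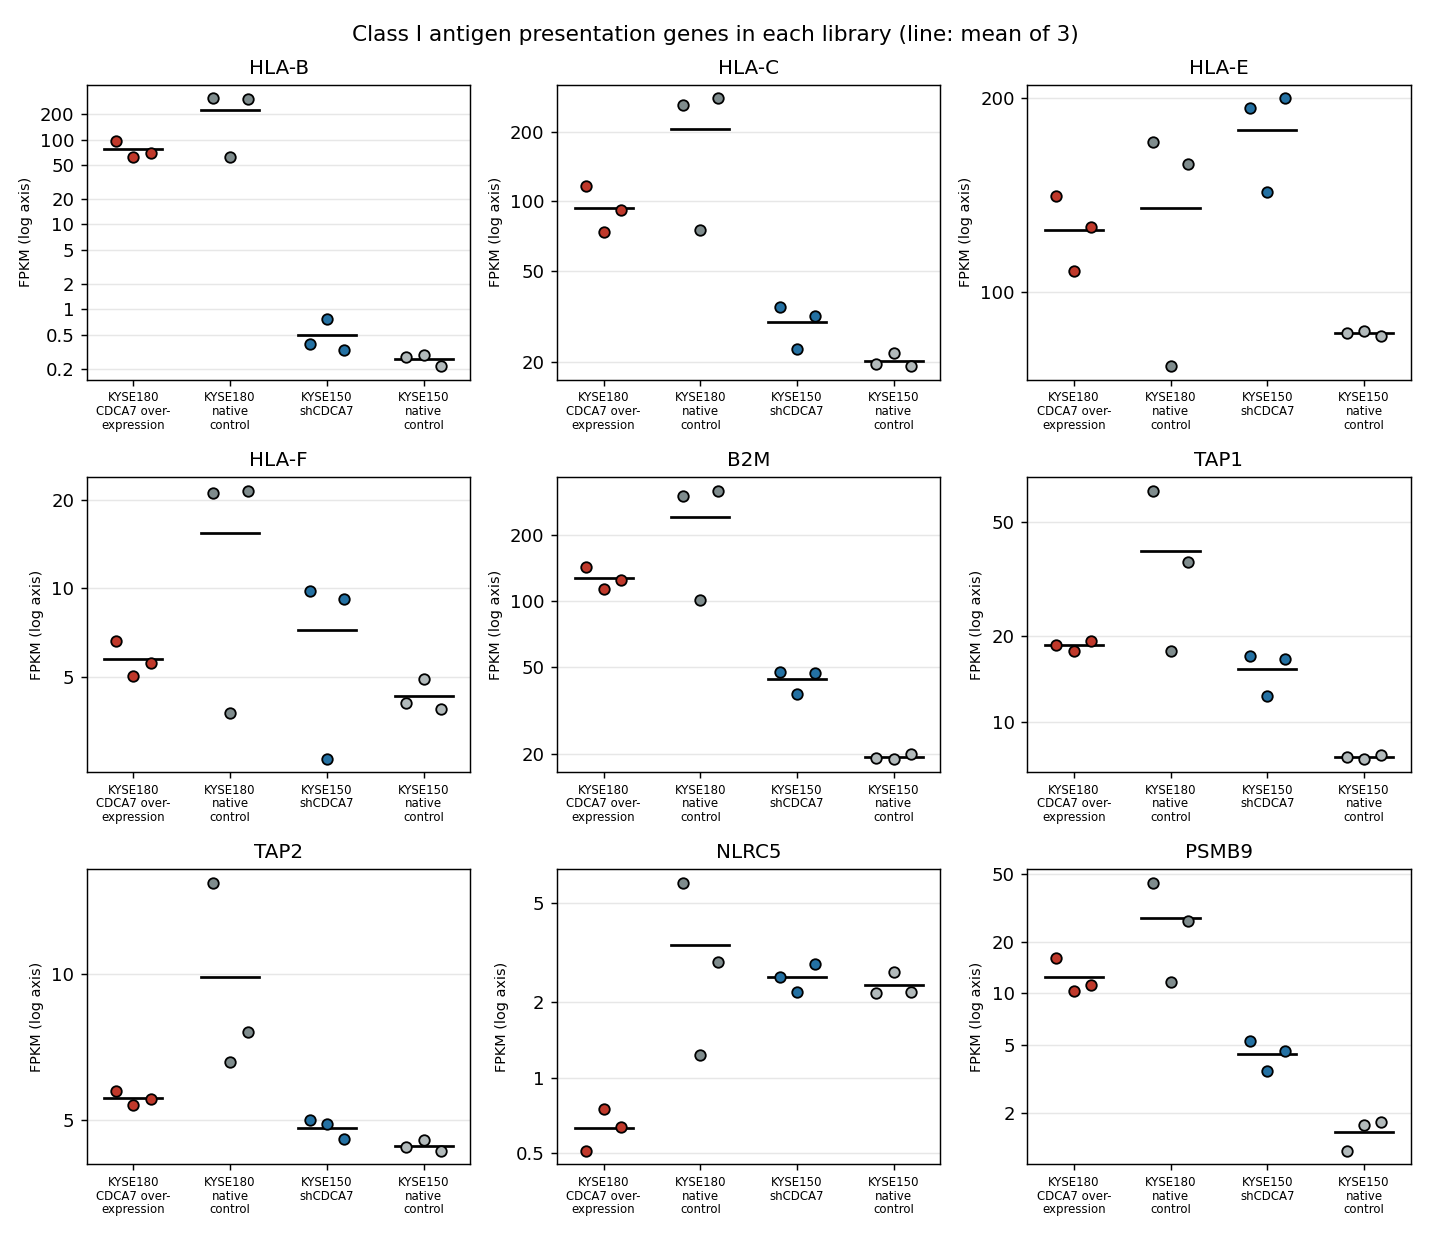
FPKM of each of the 9 class I genes in each library on log axes, 1 panel per gene; points are libraries, ordered from replicate 1 to 3 within a group, and lines are means of 3. Native KYSE180 replicate 2 is the lowest of its group in every panel, HLA-B is below 1 FPKM in all KYSE150 libraries, and shCDCA7 libraries lie above native KYSE150 libraries for B2M, TAP1, PSMB9 and HLA-E.

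In KYSE180, the comparison of CDCA7 overexpression with native cells showed lower mean FPKM of all 9 genes in overexpressing cells, but none passed the test. Native replicate 2 lay within or below the range of the overexpressing libraries for all members but TAP2 and NLRC5. Of 15944 genes tested, 9.08% were called at an adjusted p under 0.05 (limma-trend on log2(FPKM + 1), Benjamini-Hochberg over all genes tested), 4.65% higher and 4.43% lower, against 0 of 9 members. At an unadjusted p under 0.05 there were 2 members, TAP2 and NLRC5. Groups did not overlap, with overexpressing libraries lower, for these same 2 of 9 members and for 17.4% of all genes tested. The median log2 difference was -0.92 over the 9 members and -0.00 over all genes tested.

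Among the heavy chains, HLA-B (chromosome 6, 31269491 to 31357188) was at 96.6, 62.8 and 70.3 FPKM in overexpressing libraries, against 306, 61.9 and 300.5 FPKM in native libraries. Native replicates 1 and 3 lay far above the overexpressing libraries, and native replicate 2 lay just below them, so the groups overlapped (log2 difference -1.24, SE 0.57, adjusted p = 0.188). HLA-C was at 116, 73.6 and 92.0 FPKM in overexpressing libraries, against 262, 75.1 and 281 FPKM in native libraries. The pattern was that of HLA-B, with native replicate 2 inside the range of the overexpressing group (-0.93, SE 0.47, adjusted p = 0.226). HLA-F was at 6.62, 5.02 and 5.56 FPKM in overexpressing libraries, against 21.0, 3.78 and 21.5 FPKM in native libraries. Here native replicate 2 was the lowest of the 6 libraries (-0.99, SE 0.54, adjusted p = 0.256). HLA-E was at 141, 108 and 126 FPKM in overexpressing libraries, against 171, 76.5 and 158 FPKM in native libraries. This chain had the smallest difference of the 9 members, with the overexpressing libraries inside the range of the native ones (-0.04, SE 0.30, adjusted p = 0.946).

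B2M (chromosome 15, 44711487 to 44718877) was at 143, 113 and 124 FPKM in overexpressing libraries, against 302, 101 and 318 FPKM in native libraries. The light chain thus followed the classical heavy chains, high in native replicates 1 and 3 and low in native replicate 2 (-0.75, SE 0.41, adjusted p = 0.253). TAP1 was at 18.6, 17.8 and 19.2 FPKM in overexpressing libraries, against 64.3, 17.8 and 36.3 FPKM in native libraries. The overexpressing libraries were within 2 FPKM of each other, and native replicate 2 was level with them (-0.87, SE 0.38, adjusted p = 0.173). TAP2 was at 5.72, 5.36 and 5.50 FPKM in overexpressing libraries, against 15.4, 6.59 and 7.58 FPKM in native libraries. All 3 native libraries lay above all 3 overexpressing ones, with native replicate 1 far the highest (-0.65, SE 0.27, adjusted p = 0.154).

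PSMB9 was at 16.0, 10.4 and 11.1 FPKM in overexpressing libraries, against 44.4, 11.6 and 26.5 FPKM in native libraries. Native replicates 1 and 3 lay above the overexpressing range and native replicate 2 inside it (-0.92, SE 0.42, adjusted p = 0.185). NLRC5 (chromosome 16, 56989485 to 57083531) was at 0.509, 0.748 and 0.631 FPKM in overexpressing libraries, against 6.04, 1.23 and 2.91 FPKM in native libraries. The transactivator had the lowest ratio of the members, a mean FPKM 0.186 times that of native cells, and its groups did not overlap (-1.28, SE 0.36, adjusted p = 0.0618). It was called lower with an added 0.1 in place of 1 (-2.01, adjusted p = 0.0438), with limma-voom on the recovered reads (-2.14, adjusted p = 0.0428) and in a fit of all 12 libraries (-1.28, adjusted p = 0.0167). Across 15 alternatives its adjusted p was between 0.00587 and 0.195.

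The count depended on native KYSE180 replicate 2. Without it, 7 of the 9 members were called lower, where 7.25% of 15630 genes tested were called lower. These were HLA-B (-2.0, adjusted p = 0.00179), HLA-C (-1.54, adjusted p = 0.00519), HLA-F (-1.73, adjusted p = 0.000797), B2M (-1.29, adjusted p = 0.00442), TAP1 (-1.34, adjusted p = 0.0111), PSMB9 (-1.41, adjusted p = 0.0141) and NLRC5 (-1.69, adjusted p = 0.00587). TAP2 and HLA-E were not called there either. Interferon-stimulated genes moved with the same library: the mean log2(FPKM + 1) over 44 of them was 2.70, 2.80 and 2.80 in overexpressing libraries, against 5.36, 3.12 and 4.58 in native libraries.

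In KYSE150, the shCDCA7 libraries held more HLA-E, B2M, TAP1 and PSMB9 than native cells, by between 2.02 and 2.86 times in mean FPKM. These 4 of 9 members were called higher, where 10% of 14342 genes tested were called higher and 19.9% in either direction. No member was called lower, where 9.86% of all genes tested were. Groups did not overlap, with shCDCA7 libraries higher, for 7 of 9 members and for 25.3% of all genes tested. The median log2 difference was 0.52 over the 9 members and 0.00 over all genes tested.

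HLA-E (chromosome 6, 30489467 to 30494205) was at 193, 143 and 199.6 FPKM in shCDCA7 libraries, against 86.2, 86.8 and 85.4 FPKM in native libraries. Every shCDCA7 library was above every native one, with shCDCA7 replicate 2 the lowest of the 3, and HLA-E rose (log2 difference 1.03, SE 0.14, adjusted p = 0.00699). HLA-C was at 34.8, 22.8 and 31.6 FPKM in shCDCA7 libraries, against 19.6, 21.8 and 19.1 FPKM in native libraries. The groups did not overlap, but shCDCA7 replicate 2 lay close to native replicate 2 (0.52, SE 0.16, adjusted p = 0.0699). HLA-F was at 9.80, 2.64 and 9.20 FPKM in shCDCA7 libraries, against 4.09, 4.93 and 3.88 FPKM in native libraries. Here shCDCA7 replicate 2 lay below all native libraries while the other 2 lay above them (0.48, SE 0.42, adjusted p = 0.444). HLA-B was at 0.394, 0.767 and 0.336 FPKM in shCDCA7 libraries, against 0.276, 0.287 and 0.213 FPKM in native libraries. These values rest on 19, 32 and 18 reads in shCDCA7 libraries and on 18, 17 and 13 reads in native ones, and although the groups did not overlap, the difference was not called (0.24, SE 0.11, adjusted p = 0.170).

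B2M was at 46.9, 37.5 and 46.5 FPKM in shCDCA7 libraries, against 19.1, 19.0 and 20.0 FPKM in native libraries. The light chain rose (log2 difference 1.12, SE 0.11, adjusted p = 0.00313), the groups lay far apart, and the gene was called under all 15 alternatives, with adjusted p between 7.8e-06 and 0.0409. TAP1 was at 17.0, 12.3 and 16.6 FPKM in shCDCA7 libraries, against 7.53, 7.46 and 7.68 FPKM in native libraries, with no overlap, and it rose (0.91, SE 0.14, adjusted p = 0.00855). TAP2, the other half-transporter, was at 4.99, 4.91 and 4.55 FPKM in shCDCA7 libraries, against 4.40, 4.54 and 4.31 FPKM in native libraries. Its groups were apart by less than 0.01 FPKM and it was not called (0.10, SE 0.10, adjusted p = 0.488).

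PSMB9 was at 5.25, 3.52 and 4.57 FPKM in shCDCA7 libraries, against 1.2, 1.71 and 1.76 FPKM in native libraries. The subunit rose (1.09, SE 0.16, adjusted p = 0.00856), with every shCDCA7 library above every native one. NLRC5 was at 2.54, 2.20 and 2.84 FPKM in shCDCA7 libraries, against 2.19, 2.65 and 2.20 FPKM in native libraries. The transactivator's groups overlapped, and it was not called (0.07, SE 0.12, adjusted p = 0.684). Under total-read scaling the differences of TAP2 (-0.12) and NLRC5 (-0.11) had the other sign.

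Single libraries moved 5 of these calls, and calls over all genes tested ranged from 410 to 7948 with 1 library left out. Without native KYSE150 replicate 1, TAP1 (adjusted p = 0.0563) and PSMB9 (0.0517) were no longer called, and without native replicate 2 HLA-E (adjusted p = 0.0510), TAP1 (0.0575) and PSMB9 (0.0514) were not, while their log2 differences stayed between 0.91 and 1.13. In the fit of all 12 libraries TAP1 (adjusted p = 0.0767) and PSMB9 (0.0584) were not called, and with each library's GC trend removed HLA-C was (0.74, adjusted p = 0.00235). Without shCDCA7 replicate 2, HLA-C (0.69, adjusted p = 0.000219) and HLA-F (0.99, adjusted p = 0.000184) were called as well, which made 6 of 9 members higher where 29.5% of 14215 genes tested were called higher.

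**Figure D2:**
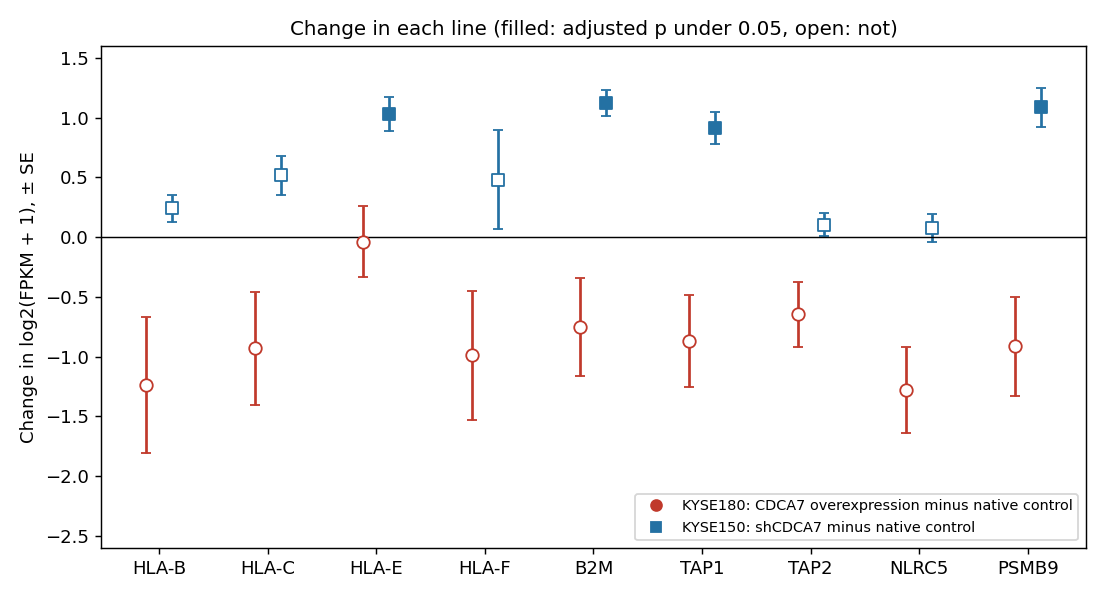
Log2 difference of each class I gene, changed minus native cells, in KYSE180 (circles) and KYSE150 (squares), on the log2(FPKM + 1) scale; bars are ± 1 SE from limma-trend and filled symbols have an adjusted p under 0.05. All 9 circles lie at or below 0 and are open; all 9 squares lie above 0 (TAP2 and NLRC5 below it under total-read scaling), and those of HLA-E, B2M, TAP1 and PSMB9 are filled.

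The difference between the effects, CDCA7 overexpression minus native in KYSE180 less shCDCA7 minus native in KYSE150, was tested in 1 fit of all 12 libraries. It was negative for all 9 members and passed the test for B2M (-1.88, SE 0.48, adjusted p = 0.0455), TAP1 (-1.79, SE 0.47, adjusted p = 0.0481) and PSMB9 (-2.0, SE 0.51, adjusted p = 0.0454). That made 3 of 9 members lower, where 2.7% of 17088 genes tested were lower and 5.57% were called in either direction. The other 6 members had differences between -1.48 and -0.75 and adjusted p between 0.0924 and 0.289. All 3 calls lay close to the threshold. They were absent under TMM scaling, with adjusted p between 0.0505 and 0.0571, under total-read scaling, with no filter, and when any single library other than native KYSE180 replicate 2 or shCDCA7 replicate 2 was left out. Without native KYSE180 replicate 2, 8 of 9 members were called lower, where 5.51% of all genes tested were. Calls over all genes tested, in either direction, ranged from 269 to 1632 with 1 library left out.

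Between native cells of the lines, KYSE180 held more class I RNA than KYSE150. Called higher in KYSE180 were 6 of 9 members, where 33.4% of 17088 genes tested were higher, 24.6% were lower and 58% were called in either direction. Means of 3 native libraries were 240 ± 121 FPKM in KYSE180 and 19.4 ± 0.557 FPKM in KYSE150 for B2M (log2 difference 3.39, SE 0.34, adjusted p = 5.9e-06), and 206 ± 114 and 20.2 ± 1.42 FPKM for HLA-C (3.07, SE 0.40, adjusted p = 5.5e-05). PSMB9 averaged 27.5 ± 16.4 FPKM in KYSE180 and 1.56 ± 0.308 FPKM in KYSE150 (3.30, SE 0.36, adjusted p = 1.2e-05). TAP1 averaged 39.5 ± 23.4 and 7.56 ± 0.111 FPKM (2.06, SE 0.33, adjusted p = 0.00024), and TAP2 averaged 9.86 ± 4.84 and 4.42 ± 0.116 FPKM (0.92, SE 0.22, adjusted p = 0.00431). All the KYSE180 libraries lay above all the KYSE150 libraries for these 5 genes and for HLA-B, native KYSE180 replicate 2 included, where 39.4% of all genes tested had KYSE180 libraries higher with no overlap.

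HLA-B differed the most of the 9 members, at 223 ± 139 FPKM in native KYSE180 and 0.258 ± 0.0397 FPKM in native KYSE150, a ratio of 862 that rests on 13 to 18 reads per KYSE150 library (7.16 on the log2(FPKM + 1) scale, SE 0.48, adjusted p = 1.8e-07). HLA-B therefore stood with B2M and HLA-C at the top of the 9 levels in KYSE180 and was the lowest of the 9 in KYSE150. HLA-E averaged 135 ± 51.0 FPKM in KYSE180 and 86.1 ± 0.687 FPKM in KYSE150 (0.56, SE 0.26, adjusted p = 0.0840), HLA-F 15.4 ± 10.1 and 4.30 ± 0.554 FPKM (1.33, SE 0.55, adjusted p = 0.0543), and NLRC5 3.39 ± 2.44 and 2.35 ± 0.266 FPKM (0.24, SE 0.31, adjusted p = 0.524). HLA-F was called higher with limma-voom (adjusted p = 0.0487), with the GC trend removed (adjusted p = 0.0457) and without shCDCA7 replicate 2 (adjusted p = 0.0290). Native KYSE180 replicate 2 lay below the KYSE150 range for these 3 genes. Without that library all 9 members were called higher, where 32.6% of all genes tested were, HLA-E by 0.92 (adjusted p = 0.00074), HLA-F by 2.07 (adjusted p = 0.00089) and NLRC5 by 0.65 (adjusted p = 0.0227).

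In native KYSE180 the order of mean FPKM ran from B2M, HLA-B, HLA-C and HLA-E through TAP1, PSMB9, HLA-F and TAP2 to NLRC5. The ranges of the first 4 overlapped, as did those of neighbours from TAP1 to TAP2, while HLA-E and TAP1, and TAP2 and NLRC5, did not overlap. Within each native KYSE180 library, however, TAP1 lay above PSMB9 and PSMB9 above HLA-F. In native KYSE150 the order was HLA-E, HLA-C, B2M, TAP1, TAP2, HLA-F, NLRC5, PSMB9 and HLA-B. Both orders depend on the deposited gene lengths, which ran from 2507 bases for HLA-C to 12386 for NLRC5. The gaps between HLA-E and HLA-C, between B2M and TAP1, between TAP1 and TAP2, between HLA-F and NLRC5, between NLRC5 and PSMB9 and between PSMB9 and HLA-B exceeded the spread of 3 libraries, while HLA-C and B2M, and TAP2 and HLA-F, overlapped.

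The makeup of the 4 heavy chains differed by line. HLA-E made up 41.7 ± 2.31% of their summed FPKM in overexpressing KYSE180, 26.1 ± 7.91% in native KYSE180, 82.8 ± 1.71% in shCDCA7 KYSE150 and 77.7 ± 1.27% in native KYSE150 (SD, n = 3 each). HLA-B made up 25.3 ± 1.45% in overexpressing KYSE180, 36.1 ± 6.6% in native KYSE180, 0.253 ± 0.174% in shCDCA7 KYSE150 and 0.233 ± 0.0318% in native KYSE150. HLA-C made up 31.1 ± 1.41% in overexpressing KYSE180, 35.3 ± 1.37% in native KYSE180, 13.7 ± 0.777% in shCDCA7 KYSE150 and 18.2 ± 0.845% in native KYSE150. In every KYSE150 library the nonclassical HLA-E was thus the main heavy-chain RNA. In native KYSE180 replicate 2 the share of HLA-E was 35.2%, against 22.4% and 20.8% in replicates 1 and 3.

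Heavy-chain RNA relative to light-chain RNA differed more between the lines than within them. The 4 heavy chains summed to 2.52, 2.21 and 2.37 times the FPKM of B2M in overexpressing KYSE180 and to 2.52, 2.16 and 2.39 times in native KYSE180. They summed to 5.07, 4.52 and 5.18 times that of B2M in shCDCA7 KYSE150 and to 5.75, 5.99 and 5.43 times in native KYSE150. The KYSE180 groups overlapped, while each shCDCA7 library lay below each native KYSE150 library. The size of these ratios depends on the deposited gene lengths, 6079 bases for B2M and 2507 to 4342 for the heavy chains. They can be compared between libraries but are not ratios of transcript numbers.

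**Figure D3:**
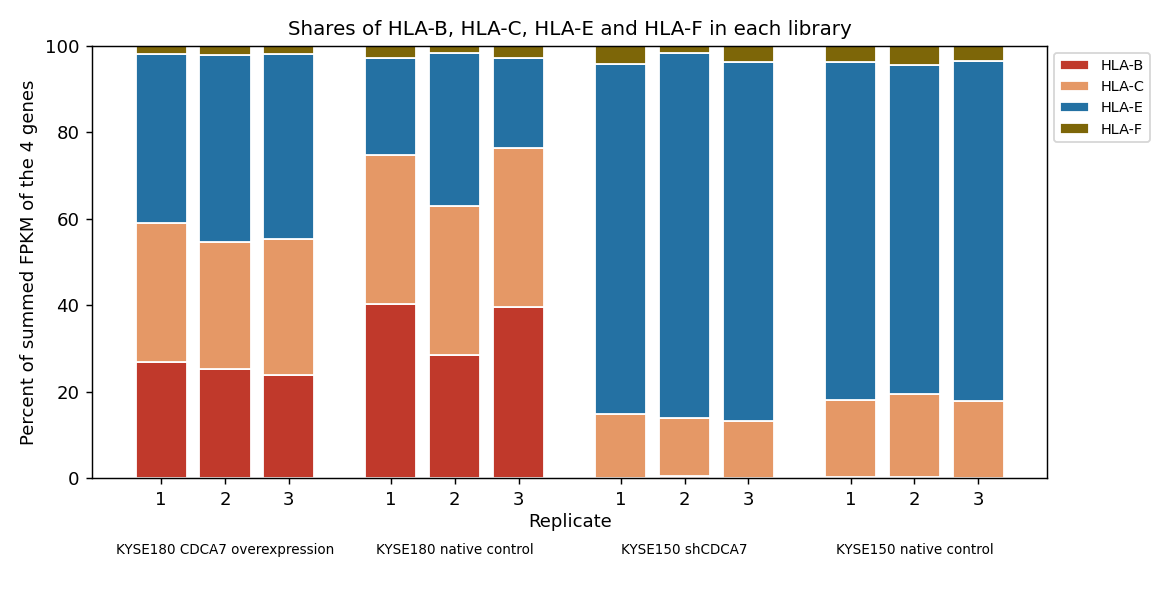
Share of each heavy chain in the summed FPKM of HLA-B, HLA-C, HLA-E and HLA-F, in percent, 1 stacked bar per library. HLA-E makes up 76.3% or more in every KYSE150 library and between 20.8% and 43.2% in KYSE180 libraries, while HLA-B is at or below 0.453% in KYSE150.

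The immunoproteasome forms when PSMB9, PSMB8 and PSMB10 take the places of PSMB6, PSMB5 and PSMB7. PSMB9 made up 10.3 ± 0.350% of PSMB9 plus PSMB6 FPKM in overexpressing KYSE180, against 23.5 ± 11.6% in native KYSE180, and 3.10 ± 0.832% in shCDCA7 KYSE150, against 1.25 ± 0.278% in native KYSE150 (SD, n = 3 each). Neither pair of groups overlapped, and both gave p = 0.1 in a two-sided exact permutation test, the smallest p that 3 against 3 allows. In KYSE180 the gap was narrow, with native replicate 2 at 10.74% and the highest overexpressing library at 10.66%. PSMB8 made up 8.91 ± 0.0464% of PSMB8 plus PSMB5 in overexpressing KYSE180, against 15.8 ± 7.41% in native cells (exact permutation p = 0.4), and 5.68 ± 0.460% in shCDCA7 KYSE150, against 5.32 ± 0.923% in native cells (exact permutation p = 0.6). PSMB10 made up 2.05 ± 0.377% of PSMB10 plus PSMB7 in overexpressing KYSE180, against 5.73 ± 3.71% in native cells (exact permutation p = 0.3), and 0.784 ± 0.666% in shCDCA7 KYSE150, against 0.816 ± 0.0771% in native cells (exact permutation p = 1). In KYSE180 the share differences were -13.2 percentage points for PSMB9, -6.88 for PSMB8 and -3.68 for PSMB10. Without native KYSE180 replicate 2 they were -19.5, -11.0 and -5.61, each with an exact permutation p of 0.1, the smallest that the remaining libraries allow. Without native replicate 1 they were -8.14, -3.92 and -1.91. Of these 3 inducible subunits PSMB9 was the one called in KYSE150: PSMB8 had a log2 difference of 0.24 (SE 0.15, adjusted p = 0.287) and PSMB10 one of -0.13 (SE 0.34, adjusted p = 0.811). In KYSE180 PSMB8 differed by -0.71 (SE 0.34, adjusted p = 0.209) and PSMB10 by -1.01 (SE 0.39, adjusted p = 0.128).

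**Figure D4:**
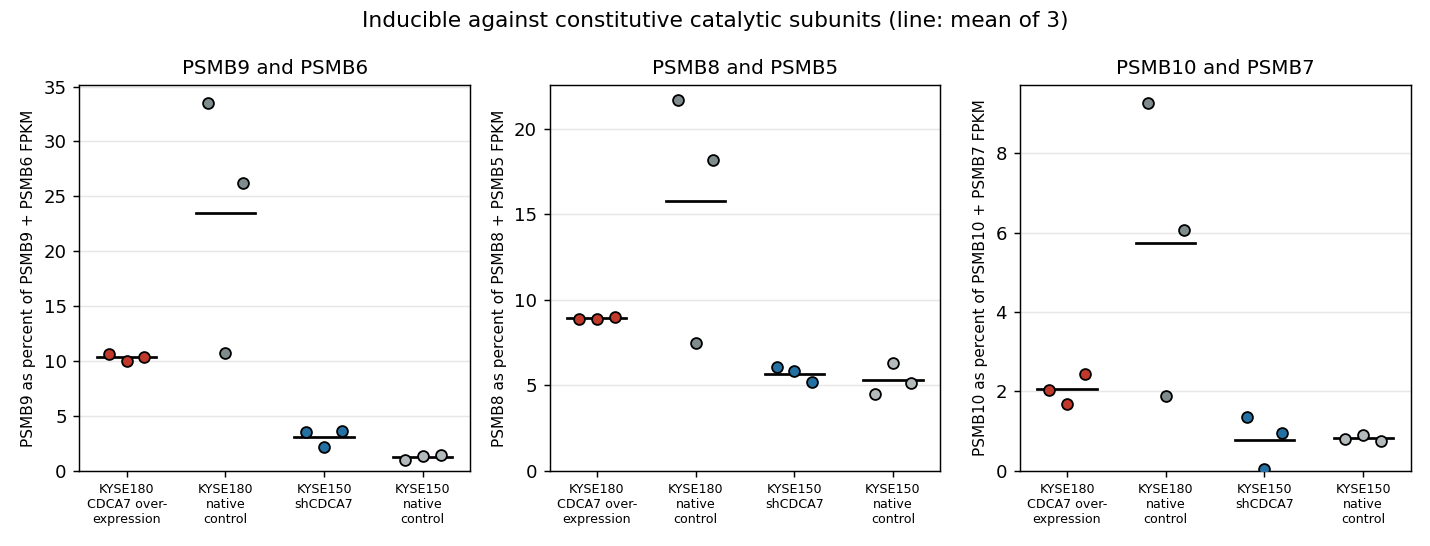
Share of each inducible catalytic subunit in the sum with the constitutive subunit it replaces, in percent of FPKM, by library; points are libraries and lines are means of 3. The PSMB9 share lies between 9.97% and 10.7% in overexpressing KYSE180 and between 10.7% and 33.5% in native KYSE180, and is below 4% in all KYSE150 libraries.

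The rest of the class I route was compared as a list of 14 genes, of which 0 were called in KYSE180 (3 at an unadjusted p under 0.05 in limma-trend, 0 called by limma-voom, median log2 difference -0.27) and 5 were called higher and 1 lower in KYSE150 (median 0.31). Of all genes tested, 4.65% were called higher and 4.43% lower in KYSE180, and 10% higher and 9.86% lower in KYSE150. PSME1 and PSME2, which form the proteasome activator PA28, were at 71.6 ± 6.38 and 36.6 ± 3.16 FPKM in shCDCA7 KYSE150, against 40.0 ± 2.36 and 19.1 ± 2.66 FPKM in native KYSE150. They rose by 0.82 (adjusted p = 0.00535) and 0.91 (adjusted p = 0.00696) on the log2 scale. TAPBP, the tapasin that holds empty class I at the transporter, rose by 0.64 (14.9 ± 1.76 FPKM in shCDCA7 and 9.17 ± 0.767 FPKM in native KYSE150, adjusted p = 0.0165). HM13, the signal peptide peptidase that frees leader peptides for HLA-E, fell by 0.52 (9.39 ± 0.982 FPKM in shCDCA7 and 13.9 ± 0.378 FPKM in native KYSE150, adjusted p = 0.0185). In KYSE180 TAPBP differed by -0.22 (adjusted p = 0.653). Without native KYSE180 replicate 2, 5 route genes were called lower in KYSE180, where 7.25% of all genes tested were. In KYSE150 between 2 and 3 route genes were called higher without any 1 of the native libraries or of shCDCA7 replicates 1 and 3. Calls over all genes tested ranged there from 410 to 7948 with 1 library left out. Without shCDCA7 replicate 2, 9 were called higher, where 29.5% of all genes tested were. Of 14 constitutive proteasome core genes 0 were called in either line by limma-trend or limma-voom (1 in KYSE180 and 4 in KYSE150 at an unadjusted p under 0.05), with medians of -0.04 in KYSE180 and 0.18 in KYSE150. Of all 14 route genes PSME2 alone also differed between the effects in the lines (-1.26, adjusted p = 0.0279).

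Of 20 regulators of class I transcription, 0 were called in KYSE180 (4 at an unadjusted p under 0.05 in limma-trend, 0 called by limma-voom) and 3 were called higher and 1 lower in KYSE150. Of all genes tested, 9.08% were called in KYSE180. In KYSE150 10% were called higher and 9.86% lower, so the regulators' counts there were near those of all genes. IRF1, the interferon-induced factor that binds class I promoters, was at 4.27 ± 1.09 FPKM in shCDCA7 KYSE150, against 1.84 ± 0.0633 FPKM in native cells (0.87, adjusted p = 0.0180). STAT3, a factor activated by cytokine receptors, was at 32.8 ± 6.81 FPKM in shCDCA7 KYSE150, against 21.4 ± 0.395 FPKM in native cells (0.58, adjusted p = 0.0385). RFXANK, a subunit of the RFX complex on the X box, fell by 0.64 (adjusted p = 0.0135). None of the 3 rises was called without any 1 of the native KYSE150 libraries or of shCDCA7 replicates 1 and 3. Calls over all genes tested ranged from 410 to 7948 in KYSE150 with 1 library left out. Without shCDCA7 replicate 2, 9 regulators were called higher, where 29.5% of all genes tested were. In KYSE180 IRF1 was at 2.47 ± 0.261 FPKM in overexpressing cells, against 3.13 ± 0.802 FPKM in native cells, and was not called (-0.24, adjusted p = 0.380). CIITA, the class II counterpart of NLRC5, averaged at most 0.242 FPKM in any group and was not called in KYSE180 (-0.20, adjusted p = 0.181) or KYSE150 (0.02, adjusted p = 0.721). Of 13 class II genes, 6 were high enough to test in KYSE180 and 1 in KYSE150, and 0 were called by limma-trend (3 in KYSE180 at an unadjusted p under 0.05, 1 called lower there by limma-voom). The effects in the lines differed for IRF1 (-1.11, adjusted p = 0.0281).

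Among 11 interferon receptors, their kinases and inhibitors of their signalling, 1 was called higher in each line. Of all genes tested, 4.65% were called higher in KYSE180 and 10% in KYSE150, so these counts were near the shares of all genes. SOCS3, an inhibitor of cytokine signalling, was at 17.8 ± 2.31 FPKM in overexpressing KYSE180, against 5.21 ± 1.40 FPKM in native KYSE180 (1.61, adjusted p = 0.00860). IFNGR1, a chain of the interferon-γ receptor, was at 10.1 ± 0.129 FPKM in shCDCA7 KYSE150, against 7.49 ± 0.251 FPKM in native KYSE150 (0.38, adjusted p = 0.0276). SOCS3 was not called without overexpression replicate 1 or 3, nor IFNGR1 without any 1 library other than shCDCA7 replicate 2. With 1 library left out, calls over all genes tested ranged from 1 to 2317 in KYSE180 and from 410 to 7948 in KYSE150. Ligands of natural killer cell and T cell receptors were a list of 15, of which 12 could be tested in each line. Of these 12, 2 were called higher and 0 lower in KYSE180, and 2 higher and 1 lower in KYSE150. Called lower among all genes tested were 4.43% in KYSE180 and 9.86% in KYSE150. MICB and ULBP2, ligands of the activating receptor NKG2D, rose in overexpressing KYSE180 (0.62, adjusted p = 0.0303, and 0.69, adjusted p = 0.0244), where 0 ligands were called without native replicate 1 or any 1 overexpressing library. In shCDCA7 KYSE150 the NKG2D ligands RAET1L (by 1.01, adjusted p = 0.00294) and MICA (0.70, adjusted p = 0.0133) rose, and NCR3LG1, the ligand of NKp30, fell by 0.38 (adjusted p = 0.0416). Without shCDCA7 replicate 2, 6 ligands were called higher and 3 lower in KYSE150, where 29.5% of all genes tested were called higher. Without any 1 other library 0 were called lower, and without any 1 native library 1 was called higher.

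Interferon-stimulated genes were the longest list. In KYSE180 0 were called higher and 9 lower of 43 tested (median -1.74), where 4.65% of all genes tested were called higher and 4.43% lower. In KYSE150 17 were called higher and 0 lower of 36 tested (median 0.43), where 10% of all genes tested were called higher and 9.86% lower. PARP9 (-2.37, adjusted p = 0.0487), HERC6 (-2.34, adjusted p = 0.0293) and IFIT3 (-2.34, adjusted p = 0.0214) had the largest falls among the 9 called in overexpressing KYSE180, and MX1 had the largest difference of the list without being called (-3.44, adjusted p = 0.0729). IFI44 (2.54), IFIT1 (2.39) and OASL (2.37) had the largest rises in shCDCA7 KYSE150, each with an adjusted p of 0.00166. Without native KYSE180 replicate 2, 38 were called lower in KYSE180, where 7.25% of all genes tested were. The count was 3 without native replicate 1, 6 without native replicate 3 and 0 without any 1 overexpressing library. Calls over all genes tested moved as well, between 1 and 2317 in KYSE180 with 1 library left out. In KYSE150 between 11 and 19 were called higher with 1 library left out. Over all genes tested, between 410 and 7948 were then called in either direction. In KYSE150 5 of 10 tested squamous markers were also called higher. Over the 44 genes the mean log2(FPKM + 1) was 2.24, 2.31 and 2.22 in shCDCA7 libraries, against 1.62, 1.68 and 1.67 in native KYSE150 libraries. The 9 class I genes averaged 3.72, 3.32 and 3.67 in shCDCA7 libraries, against 2.91, 3.01 and 2.93 in native KYSE150 libraries, and 4.72, 4.40 and 4.52 in overexpressing KYSE180, against 6.09, 4.38 and 5.73 in native KYSE180. The part of the interferon-stimulated genes in the class I levels was not tested.

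**Figure D5:**
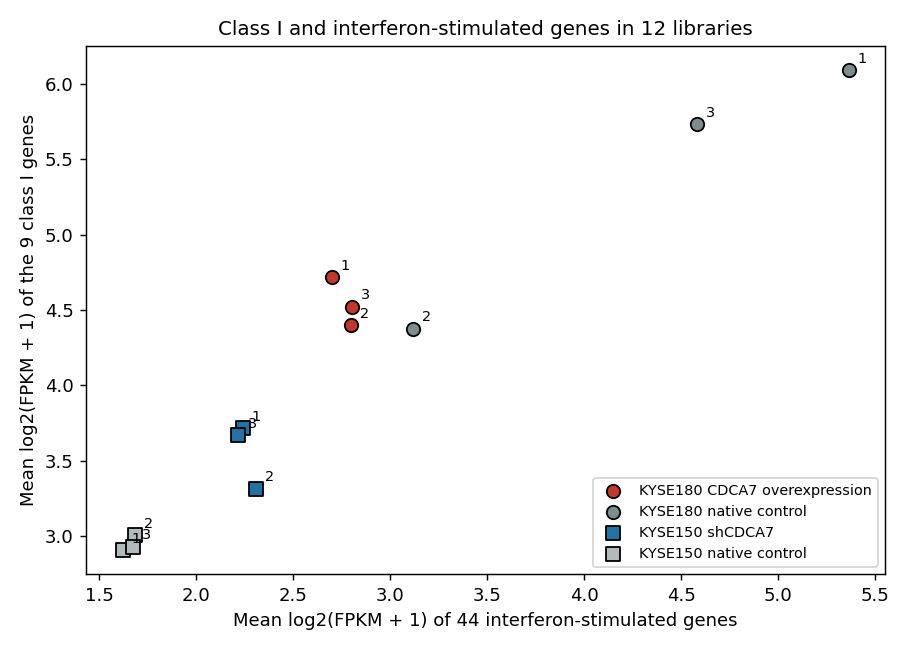
Mean log2(FPKM + 1) of the 9 class I genes (vertical axis) against that of 44 interferon-stimulated genes (horizontal axis), 1 point per library labelled with its replicate. The overexpressing KYSE180 libraries lie between 4.40 and 4.72 on the class I axis, native KYSE180 replicate 2 lies at 4.38, native KYSE180 replicates 1 and 3 lie at 6.09 and 5.73, and shCDCA7 libraries lie right of and above native KYSE150 libraries.

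Likeness between genes was described by Pearson's r of log2(FPKM + 1) over the 12 libraries after subtracting each line's mean; the libraries share their line, culture and group, so no p is given. Against the mean of the other 8 members, r was 0.96 for HLA-C, 0.96 for TAP1, 0.95 for PSMB9, 0.93 for B2M, 0.89 for HLA-F, 0.87 for HLA-B, 0.82 for NLRC5, 0.78 for TAP2 and 0.73 for HLA-E. Of 13368 other genes, those most like the mean of the members were UBE2L6 (r = 0.99), IFI6 (0.98), BST2 (0.98), SAA1 (0.98), ISG15 (0.97) and OAS1 (0.97). UBE2L6 and ISG15 are the conjugating enzyme and the modifier of ISGylation, BST2 tethers budding virions, OAS1 makes a messenger that activates RNase L, and SAA1 is an acute-phase protein. The interferon-stimulated genes measured in both lines had a median r of 0.84 over 36 genes, against -0.02 over all genes compared. The class I mean was 6.09 and 5.73 in native KYSE180 replicates 1 and 3, against 4.38 to 4.72 in the other KYSE180 libraries. How far r rests on those replicates was not tested. UBE2L6 was at 22.0 ± 2.86 FPKM in shCDCA7 KYSE150, against 12.7 ± 1.14 FPKM in native KYSE150 (0.74, SE 0.13, adjusted p = 0.0119), and at 54.0 ± 3.0 FPKM in overexpressing KYSE180, against 122 ± 79.5 FPKM in native KYSE180 (-0.90, SE 0.49, adjusted p = 0.250).

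Some members share sequence or exons with neighbours, and the sources used here do not say whether counting used strand. TAP2 shares 32.3% of its exonic bases with AL669918.1 on the same strand, and 31.3% of its 50-base stretches recur there, so its level is uncertain. HLA-C shares 5.38% and HLA-B 2.72% of 50-base stretches with other annotated genes, HLA-E 4.34% and HLA-F 0.977%, while B2M and NLRC5 share none. PSMB9 overlaps PSMB8-AS1 on the same strand over 5.66% of its exonic bases, and TAP1 overlaps it on the opposite strand over 9.49%. On the opposite strand, HLA-B overlaps AL671883.2 over 17.8% of its exonic bases. HLA-F overlaps AL645939.1 over 16.1%, HLA-F-AS1 over 12.3% and RPL23AP1 over 5.92%, all on the opposite strand.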

How the data were processed

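RNA was measured by bulk sequencing in 12 libraries, grouped by their labels. The tools named are HISAT2 2.0.5 for alignment and DESeq2 1.20.0, with mm10 as the build, per the submitters' processing notes. All 58735 identifiers and positions there match GENCODE 29 on human GRCh38, which was used here for annotation. Counting tool and strand setting: not given in the sources used here. The values the authors deposited are FPKM, recognised from the values: multiplied by the deposited gene length they are whole multiples of 1 read for 100% of genes above 0, within 0.01 reads. Ratios, shares and orders of FPKM between genes therefore depend on the deposited lengths. Class I heavy chains are polymorphic and alike, and reads of alleles far from the reference can be lost or misplaced by an aligner; how far this touches levels between lines was not tested.

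Genes were tested if 3 or more libraries had 10 or more reads, scaled to a library of median size, and all libraries together 15 or more. Tests used limma 3.58.1 in R 4.3.3 with version 1.17.8 of data.table: limma-trend on log2(FPKM + 1), two-sided, Benjamini-Hochberg over all genes tested, per line (6 libraries) or over 4 groups (12 libraries). Log2 changes understate the ratio of genes near or under 1 FPKM. The fits were tested on simulated data. Subunit shares were compared by exact permutation. Alternatives were TMM and total-read scaling, no filter, a mean of at least 1 FPKM, an added 0.1, limma-voom on recovered reads, 1 fit of 12 libraries, a replicate block, each library left out and, added after the data were seen, removal of the GC trend.

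Named are all 9 members, the 3 largest called rises and falls of each other list per line, inducible subunits, TAPBP, IRF1, CIITA, and the 6 genes most like the members; a gene this rule also names is not reported here. Members and lists were chosen with earlier results of these data known. The labels do not say that replicates were separate cultures, so p-values measure the spread between samples, which may be technical. Read counts limit counting error only, since no molecular identifiers were used.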

Additional observations from a re-analysis of the deposited data

Results flagged for a closer look

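For 3 class I genes the difference between groups in KYSE180 was not the difference in KYSE150, by the test of the difference itself over 12 libraries. The log2 difference of CDCA7 overexpression minus native control in KYSE180, less that of shCDCA7 minus native control in KYSE150, was -1.88 for B2M (adjusted p = 0.0455), -1.79 for TAP1 (adjusted p = 0.0481) and -2.0 for PSMB9 (adjusted p = 0.0454). Under 20 alternatives B2M kept its call in 6, TAP1 in 5 and PSMB9 in 6, and the sign was negative in all of them.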

How the results depend on the processing

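In KYSE180, 0 members were called, against 1 (NLRC5) with an added 0.1, with limma-voom and in the fit of 12 libraries, and between 0 and 7 with 1 library left out. In KYSE150, 4 members were called higher, against 2 in the fit of 12 libraries and between 1 and 6 with 1 library left out. The difference between lines gave 3 lower members, against 0 under TMM scaling, 0 under total-read scaling, 0 with no filter and between 0 and 8 with 1 library left out. Between native lines 6 members were higher, and between 6 and 9 with 1 library left out. Genes called in the other lists were 12 in KYSE180, against 23 with total-read scaling, 0 with no filter, 19 with an added 0.1, 24 with limma-voom, 36 in the fit of 12 libraries and between 0 and 59 with 1 library left out. In KYSE150 they were 31, and between 14 and 68 with 1 library left out. Calls over all genes tested also moved with 1 library left out. They ranged from 1 to 2317 in KYSE180 and from 410 to 7948 in KYSE150. For the difference between lines they ranged from 269 to 1632, and between native lines from 8538 to 11170.

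Same-numbered libraries deviated together with r between -0.0761 and 0.0662, so the numbers are not shown to pair them; a replicate block left 0 members called in KYSE180 and 4 in KYSE150, and 8 between native lines, where HLA-E (adjusted p = 0.0360) and HLA-F (0.0247) were added, and 19 genes of the other lists in KYSE150.

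Signs turned for HLA-E in KYSE180 without native control replicate 1 (0.17) or 3 (0.12) or overexpression replicate 2 (0.06), within a range of -0.40 to 0.17 with 1 library left out, for TAP2 (-0.12) and NLRC5 (-0.11) in KYSE150 with total-read scaling, and for NLRC5 between native lines without KYSE180 replicate 1 (-0.18), within a range of -0.18 to 0.65. In KYSE150 the PSMB8 share difference was -0.0459 percentage points without native control replicate 1, and the PSMB10 share difference was 0.0101 without native control replicate 2 and 0.335 without shCDCA7 replicate 2. With 1 library left out these ranged from -0.0459 to 0.864 and from -0.316 to 0.335. None of these was called; the cause was not tested. HLA-B in KYSE150 is limited by depth, at 13 to 32 reads a library.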
